A study of Rattus norvegicus with 16 samples.

Results

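The comparison described here sets islets that received an adenovirus carrying Nkx6.1 (AdNkx6.1, n = 5 arrays) against islets that received the control adenovirus carrying β-galactosidase (Adβgal, n = 6 arrays). These 11 arrays are chosen by their titles from the 16 of the study. The remaining 5 arrays hold untreated islets. Their levels are given beside the virus groups for some genes, without a test, because that comparison was not made here. All islets came from male Wistar rats aged 8 weeks and were kept in RPMI medium with 8 mM glucose and 10% fetal bovine serum. Both viruses were given at the same number of particles per ml for 18 h, and the islets were collected 48 h after virus was added. The protocol states 5 replicates per condition, whereas 6 Adβgal arrays are titled as biological replicates, and all 6 were used. The labels used here give neither the cell types that took up virus nor the promoter that drives the carried gene.

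Nkx6.1 is a homeodomain transcription factor that, among the endocrine cells of the adult pancreas, is kept in the insulin-producing beta cells. Homeodomain proteins bind short DNA sites with a TAAT core, and Nkx6.1 is known mainly as a repressor that keeps other endocrine programmes off in beta cells. The title of the study links it to beta cell division through Nr4a1 and Nr4a3, which are orphan nuclear receptors that bind DNA as monomers and are rapidly induced by cAMP and calcium signals. The comparison asks what changes with the delivered factor beyond what a virus with an unrelated protein gives.

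Each gene is represented by a single probe set, whose level is printed as the log2 of its intensity, so that a difference of 1 is a doubling. Changes are AdNkx6.1 minus Adβgal with the standard error of the limma fit, a fold is always above 1 and its direction is stated, and a call is an adjusted p under 0.05 over 14217 genes. Where the values of an Adβgal group are given as a triplet, they are its lowest, median and highest array. AdNkx6.1 values are given in the order of the replicate numbers.

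Of 14217 genes, 3560 were called, which is 25.0%. The 2354 called higher with AdNkx6.1 are 16.6% of the genes tested, and the 1206 called lower are 8.48%. Counts of called list members below are to be read beside these shares. A change of at least 1.5-fold was reached by 1437 of the called genes, which is 10.1% of all genes, 1058 of them higher and 379 lower. The asymmetry grew with the size of the change: 397 genes were at least 2-fold higher against 104 lower, 73 at least 4-fold higher against 6 lower, and 17 at least 8-fold higher against 1 lower. The groups did not overlap in 1475 genes (10.4%) with AdNkx6.1 on top and in 538 (3.78%) with AdNkx6.1 at the bottom. Of the called genes 66.1% were higher. After another quantile normalization of the log2 values this share was 53.5%, and the median change over all genes moved from 0.02 to -0.03. The scatter of change against level shows the long upper tail at low and middle intensities and the single gene, Prm1, far below the rest.

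**Figure D1:**
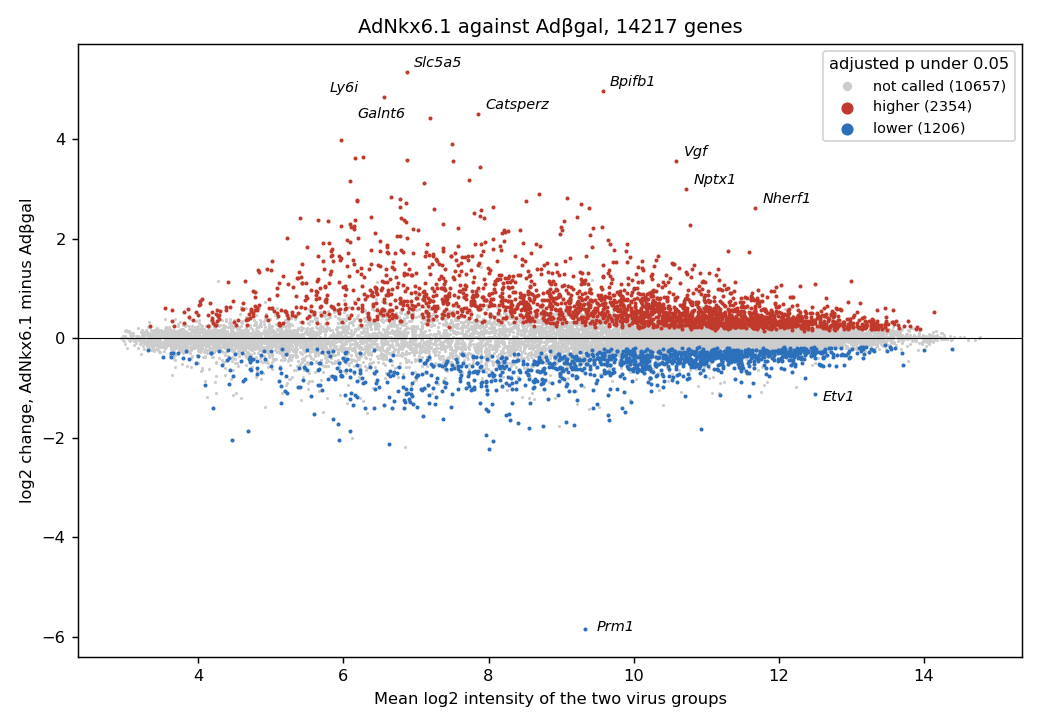
Each point is a gene, with the mean log2 intensity of the virus groups on the x axis and the log2 change, AdNkx6.1 minus Adβgal, on the y axis. Red points are the 2354 genes called higher, blue points the 1206 called lower and grey points the genes not called. The upper tail reaches 5.36 (Slc5a5), while Prm1 at -5.84 is the only gene at least 8-fold lower.

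The Adβgal arrays varied more than the others. The median SD of a gene was 0.23 over the 6 Adβgal arrays, 0.15 over the 5 AdNkx6.1 arrays and 0.12 over the 5 untreated arrays. It was 0.13 over Adβgal replicates 1 to 3 alone. Replicates 4 to 6 had the highest mean levels of acinar and of leukocyte markers among all 16 arrays. Without these 3 arrays 4028 genes were called, 2554 higher (18.0%) and 1474 lower (10.4%). Of the 3560 calls, 2849 were kept and 0 had the opposite sign. Among the genes named below as called, Cpa1 and Ppy lost their call without them. Of the same 3560 calls, 2542 were kept in all 11 fits that leave out a single array. Median array intensities ran from 264.8 to 296.2 on the linear scale.

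The genes of the title come first. Nkx6-1 read 11.54, 11.65, 11.19, 11.41 and 11.37 with AdNkx6.1 and 11.65, 11.92 and 12.13 with Adβgal, and 12.09 to 12.33 in untreated islets. All AdNkx6.1 arrays were below all Adβgal arrays, a change of -0.46 ± 0.10 (adjusted p = 0.0023). Whether this rat probe set matches the sequence in the virus is not given in the sources used here, so its level does not check the labels. Nr4a1 read 8.56, 8.46, 8.50, 8.41 and 8.55 with AdNkx6.1 against 6.26, 6.99 and 7.52 with Adβgal, a 2.97-fold rise (change 1.57 ± 0.17, adjusted p = 6.9e-06). Its AdNkx6.1 arrays lay within a narrow band above all Adβgal and untreated arrays (6.82 to 7.15). Nr4a3 read 8.72, 8.96, 9.61, 9.04 and 9.27 against 5.07, 6.93 and 8.07, a change of 2.47 ± 0.41 (adjusted p = 0.00034). The groups did not overlap, but the Adβgal arrays of Nr4a3 spanned a wide range, and with the mean of its 3 probe sets the change was 1.31. The third member of the family, Nr4a2, changed by 0.42 ± 0.17 and was not called (adjusted p = 0.083). Nr4a2 was called without Adβgal replicate 2 (change 0.51) and with the mean of its probe sets (change 0.37, adjusted p = 0.0201). Its change was 0.11 without Adβgal replicates 4 to 6 and 0.19 with array weights, neither called.

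The largest rises started from low control levels. Slc5a5, the sodium-iodide symporter of the thyroid, read 9.55, 9.28, 9.45, 9.76 and 9.73 with AdNkx6.1 and 3.74, 4.16 and 4.83 with Adβgal. It stood in the untreated arrays at 3.75 to 4.81, so both control groups were near the bottom of the scale, and the change of 5.36 ± 0.20 is 41.1-fold (adjusted p = 3.3e-11). Bpifb1, a secreted airway protein of the lipid-binding BPI fold, read 11.96, 11.70, 12.03, 12.26 and 12.36 against 6.80, 7.09 and 7.46. None of its AdNkx6.1 arrays came within 4 log2 units of an Adβgal array, and the rise was 31.5-fold (change 4.98 ± 0.13, adjusted p = 8.4e-13). Ly6i, a GPI-anchored Ly6 protein, read 8.51, 8.60, 9.14, 9.44 and 9.20 against 3.45, 3.90 and 5.68, with Adβgal replicate 5 alone above 5 in its group. Its rise was 28.8-fold (change 4.85 ± 0.30). Probe sets of Ly6 family members can detect close relatives, so the member is named as the annotation gives it.

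Catsperz, a subunit of the sperm calcium channel CatSper, read 9.999, 9.36, 10.24, 10.45 and 10.51 with AdNkx6.1 against 5.43, 5.57 and 5.84 with Adβgal, a 22.7-fold rise (change 4.50 ± 0.16, adjusted p = 1.8e-11). Its Adβgal and untreated arrays (5.23 to 5.49) lay together well below. Galnt6, an enzyme that starts mucin-type O-glycans, read 9.11, 9.26, 9.56, 9.33 and 9.79 against 4.06, 4.72 and 6.16, a 21.5-fold rise (change 4.43 ± 0.29). Untreated islets held more Galnt6 (5.45 to 6.21) than most Adβgal arrays. Hsd17b2, which inactivates estradiol and testosterone, read 7.55, 7.63, 8.31, 8.32 and 8.04 against 3.77, 3.90 and 4.34. Its change of 3.99 ± 0.14 was 2.57 when 32 was added to each intensity before the log, and its control values are dim.

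Other large rises were of genes with higher control levels. Vgf, a granin-like neuropeptide precursor stored in secretory granules, read 12.32, 12.20, 12.46, 12.42 and 12.49 with AdNkx6.1 against 8.02, 8.87 and 9.26 with Adβgal and 8.66 to 9.11 untreated. The 11.9-fold rise (change 3.58 ± 0.17, adjusted p = 5.6e-10) left no overlap. Nptx1, a neuronal pentraxin of glutamate synapses, read 11.81, 11.99, 12.59, 12.26 and 12.50 against 7.95, 9.48 and 10.26. Its Adβgal replicates 4 to 6 were its lowest, and the change of 3.01 ± 0.35 was 2.21 without them. Its receptor Nptxr also rose, by 1.16 ± 0.16. Nherf1, the PDZ scaffold that ties transporters to ezrin under the apical membrane, read 13.07, 12.72, 12.87, 13.16 and 13.14 against 9.83, 10.39 and 10.83, a 6.19-fold rise (change 2.63 ± 0.15), or 1.60 as the mean of its 2 probe sets. Scd, the delta-9 fatty acid desaturase, read 10.30, 10.42, 10.67, 10.53 and 10.54 against 6.61, 7.94 and 8.16. Untreated islets lay between the virus groups (8.53 to 9.37), and the change was 2.82 ± 0.24.

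Further genes among the 30 largest rises encode enzymes or transporters. Sult2b1, a sterol sulfotransferase of skin, rose 8.71-fold, and Prss30, a membrane-bound serine protease, rose 10.8-fold. Rhof, a small GTPase that forms filopodia, read 9.01 to 9.48 over the AdNkx6.1 arrays against 5.74 to 6.39 over the Adβgal arrays, a change of 3.18 ± 0.11 (adjusted p = 1.8e-11). Slc35f2, Pde9a and Slc15a1 rose by 2.90 ± 0.16, 2.70 ± 0.14 and 2.59 ± 0.33. Pde9a is a phosphodiesterase selective for cGMP, and Slc15a1 is the intestinal peptide transporter PepT1. Rbp7 (change 3.17 ± 0.21), a cellular retinol-binding protein, and Dpysl4 (change 2.84 ± 0.15), of the collapsin response mediator family, also rose without overlap. With 32 added before the log the change of Rbp7 was 2.10.

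Among genes whose probe sets read at least 10 on average in both virus groups, the largest rises were smaller in fold, and the 8 genes given here had separate groups. Nrip3 rose by 1.74 ± 0.11, and Gadd45b, a stress-induced regulator of growth arrest and DNA demethylation, by 1.77 ± 0.17. Pvr, the nectin-like adhesion protein CD155, rose by 1.48 ± 0.11, and Rab13, a GTPase of tight junction assembly, by 1.17 ± 0.11. Gys1, the glycogen synthase of muscle and most other tissues, read 11.35 to 11.72 with AdNkx6.1 against 9.72 to 10.62 with Adβgal (change 1.31 ± 0.13, adjusted p = 2.6e-06). Blvrb, a biliverdin and flavin reductase, rose by 1.40 ± 0.17. S100a1, a calcium-binding EF-hand protein, rose by 1.30 ± 0.15. Sulf2, which trims 6-O-sulfates from heparan sulfate outside the cell, rose by 1.32 ± 0.18.

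**Figure D2:**
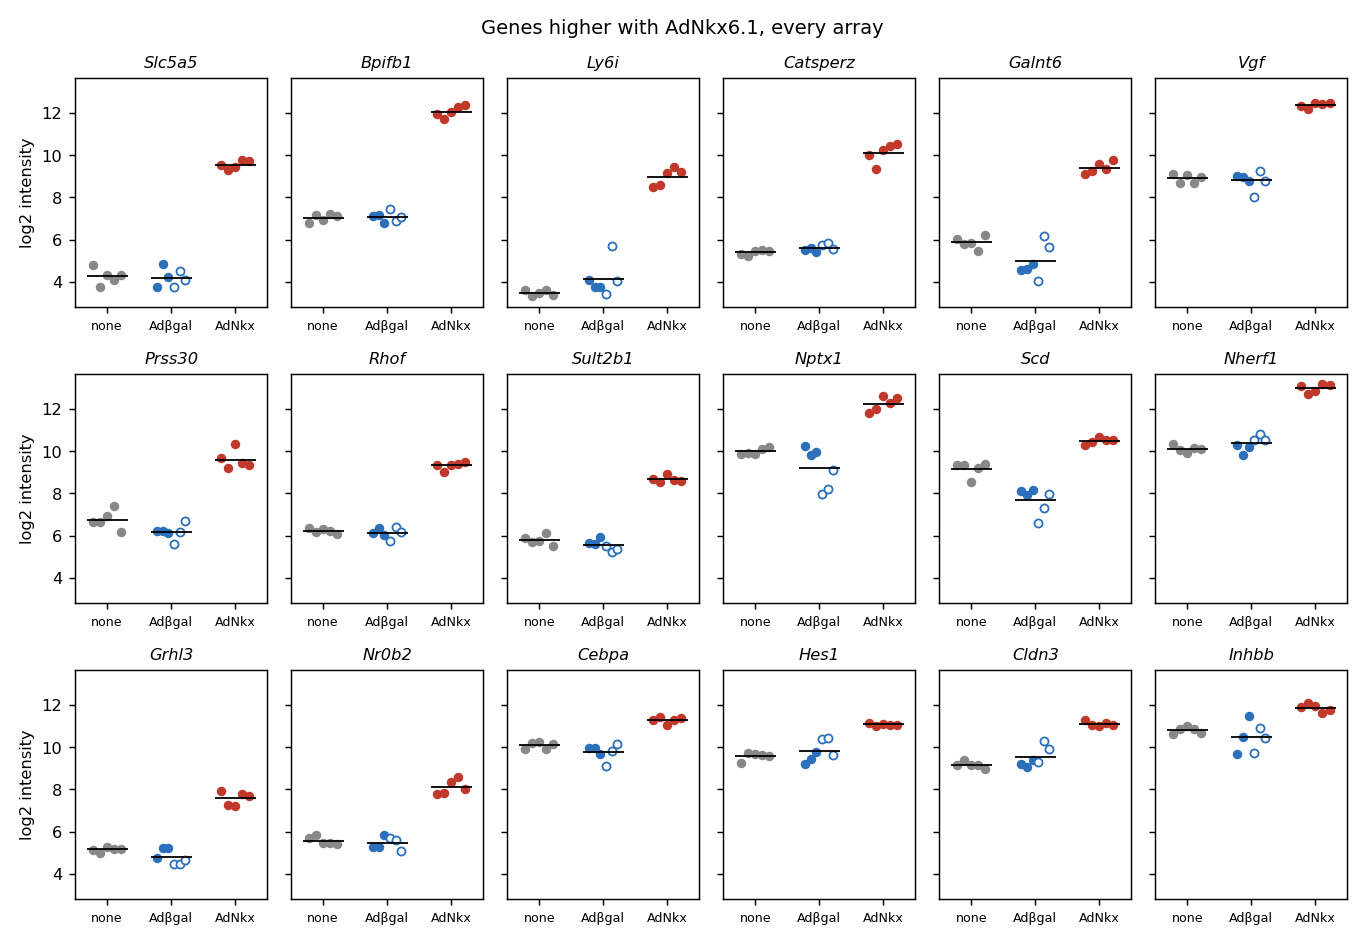
Log2 intensity of 18 genes called higher, with every array as a point and the group mean as a bar; none is untreated, AdNkx is AdNkx6.1, and open circles are Adβgal replicates 4 to 6. In all 18 panels the AdNkx6.1 points lie above the Adβgal points, as in Vgf at 12.20 to 12.49 against 8.02 to 9.26.

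Transcription factors of endoderm and liver were split. The list held 6 higher and 4 lower of 34 measured, with a median change of -0.01, near the shares of all genes. Cebpa, a bZIP factor of liver and fat, read 11.30, 11.44, 11.04, 11.28 and 11.39 against 9.11, 9.87 and 10.14, a 2.87-fold rise (change 1.52 ± 0.14, adjusted p = 1.4e-06). Grhl3, a Grainyhead factor of surface epithelia, rose 6.84-fold from a low level. Nr0b2 (SHP), a receptor without a DNA-binding domain that represses bile acid synthesis in liver, rose 6.28-fold, reading 7.79 to 8.57 against 5.08 to 5.86. On the other side, Hhex, which in adult islets marks delta cells, fell by 0.93 ± 0.12, and Nr1h4, the bile acid receptor FXR that activates Nr0b2 in liver, fell by 0.62 ± 0.11. Klf6 fell by 0.38 ± 0.07.

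Of the homeobox list, 4 higher (7.27%) and 8 lower (14.5%) of 55 measured genes were called, beside 16.6% and 8.48% over all genes. Meis1, a TALE partner of Hox proteins, fell by 0.66 ± 0.08 with separate groups, and Irx2, of alpha cells, fell by 0.60 ± 0.14 with overlap. The chromatin organizer Satb1 fell by 0.45 ± 0.10. Six4 was 1.52-fold higher, with overlap of the groups. Homeobox genes called higher numbered 2 without AdNkx6.1 replicate 4 or 5, or without Adβgal replicates 4 to 6 together. Nuclear receptors outside the NR4A group gave 8 higher (20.5%) and 3 lower (7.69%) of 39. Receptors called lower numbered 5 without Adβgal replicate 1. Ppard, a fatty acid sensor, read 11.54 to 11.78 against 10.24 to 10.85 (change 0.997 ± 0.10, adjusted p = 2.1e-06). Esrra, an orphan receptor of mitochondrial genes, rose by 0.88 ± 0.14. The retinoic acid receptors split, as Rarg rose by 0.70 ± 0.08, and Rarb fell by 0.73 ± 0.15.

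Of 52 measured targets of cAMP signalling, 13 were called higher (25%) and 5 lower (9.62%), beside 16.6% and 8.48% over all genes. Their median change was 0.10 against 0.02 over all genes. Targets called lower numbered 8 without Adβgal replicates 4 to 6 together. This list contains Nr4a1, Nr4a3 and Vgf, which earlier results had already shown. Fosb, a partner in the AP-1 complex, read 9.77, 9.78, 9.92, 9.85 and 10.15 with AdNkx6.1 against 5.92, 7.26 and 8.07 with Adβgal, a change of 2.75 ± 0.30 (adjusted p = 6e-06). Maff, a small Maf protein without an activation domain, rose by 1.43 ± 0.18, reading 10.52 to 11.02 against 8.90 to 10.08. Cited2, a coactivator that competes for p300, fell by 0.40 ± 0.09, with overlap of the groups.

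Promoter stretches of 3 genes called higher are shown because cAMP-response factors of the CREB family bind the palindrome TGACGTCA, which stands in capitals in the stretches below. Vgf and Maff are on the list, and Epha2 is another named rise whose window holds these letters. The sequences are from RefSeq (GRCr8), on the strand of the gene.
Vgf: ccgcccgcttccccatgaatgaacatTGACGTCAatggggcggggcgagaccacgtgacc
Maff: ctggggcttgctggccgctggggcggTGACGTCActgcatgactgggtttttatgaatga
Epha2: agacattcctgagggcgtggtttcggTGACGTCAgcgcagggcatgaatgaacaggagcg
The Vgf stretch lies at chr12:25277077-25277136, minus strand, and its palindrome begins 90 bases before the start. The Maff stretch lies at chr7:112792710-112792769, plus strand, and its palindrome begins 51 bases before the start. The Epha2 stretch lies at chr5:158888551-158888610, plus strand, and its palindrome begins 52 bases before the start. Epha2 is an ephrin receptor of epithelia; it read 11.28, 11.24, 11.60, 11.37 and 11.45 against 9.38, 9.89 and 11.44, and the highest Adβgal array overlapped the AdNkx6.1 group (change 1.34 ± 0.26). The palindrome was present in 7 of 305 windows of genes at least 2-fold higher (2.295%), in 0 of 88 windows of genes at least 2-fold lower, and in 335 of all 11733 windows (2.86%). Over all genes called higher it was present in 71 of 1957 windows (3.63%). Each window holds 250 bases before and 50 after the start site, searched on both strands.

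In the list of MAPK feedback genes and ETS factors, 8 higher (19.0%) and 3 lower (7.14%) of 42 were called. Members called higher numbered 13 without Adβgal replicates 4 to 6 together. Members called lower numbered 1 without AdNkx6.1 replicate 4, and 5 without Adβgal replicate 4. The feedback inhibitors Spry4 and Spred3 rose by 0.66 ± 0.14 and 1.21 ± 0.11, the latter 0.65 as the mean of its probe sets. Dusp5, a nuclear phosphatase of ERK, read 9.55 to 9.83 with AdNkx6.1, above the Adβgal range of 8.44 to 9.49 and overlapping the untreated range of 9.46 to 9.71. The ETS factors split, with Etv5 higher by 0.61 ± 0.09 and Etv1 lower (change -1.12 ± 0.17). Etv1 read 11.78, 11.80, 12.51, 11.71 and 11.92 against 12.55, 12.97 and 13.59, and no array overlapped although AdNkx6.1 replicate 3 was high in its group.

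Among EGF family genes 3 higher (15%) and 1 lower (5%) of 20 were called. EGF family genes called higher numbered 1 without AdNkx6.1 replicate 2. EGF family genes called lower numbered 0 without AdNkx6.1 replicate 3, 4 or 5, or without Adβgal replicates 4 to 6 together, and 2 without AdNkx6.1 replicate 1, or without Adβgal replicate 1, 2 or 4. Tgfa, a ligand of the EGF receptor, rose by 0.64 ± 0.12. Insulin and IGF signalling gave 9 higher (21.4%) and 6 lower (14.3%) of 42. Growth factors and receptor kinases gave 7 higher (13.2%) and 6 lower (11.3%) of 53. Growth factor genes called lower numbered 10 without Adβgal replicate 2. Igfbp1, which binds IGFs in plasma, read 10.68 to 11.26 with AdNkx6.1 and 10.34 to 10.73 with Adβgal, while untreated islets were at 11.17 to 11.69. Gsk3a, the kinase that inhibits glycogen synthase, rose by 0.45 ± 0.07 beside the rise of Gys1. Pdgfa, a platelet-derived growth factor chain, rose by 0.73 ± 0.12. The receptors Fgfr4 and Ghr fell (changes -0.62 ± 0.12 and -0.40 ± 0.10), with overlap of the groups for Ghr.

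In the list of TGFβ family signalling, 8 higher (15.7%) and 5 lower (9.80%) of 51 were called, near 16.6% and 8.48% over all genes. Its median change was -0.04, and changes ran from -1.52 to 1.77. The members named here, activin and BMP ligands and antagonists, are all rises. TGFβ family genes called lower numbered 2 without AdNkx6.1 replicate 4, 3 without AdNkx6.1 replicate 1, 3 or 5, or without Adβgal replicate 6, or without Adβgal replicates 4 to 6 together, and 10 without Adβgal replicate 1. Inhbb, the β chain of activin B, read 11.88, 12.11, 11.95, 11.63 and 11.74 against 9.69, 10.47 and 11.48, a change of 1.40 ± 0.25 (adjusted p = 0.00059). Fstl3, a secreted antagonist of activin and myostatin, rose by 1.19 ± 0.20. Bmp7 read 8.61, 8.29, 8.02, 8.16 and 8.23 against 5.51, 6.63 and 7.39, a 3.40-fold rise (change 1.77 ± 0.24), and Chrd, the secreted BMP antagonist chordin, rose by 0.90 ± 0.08. Gdf11, a relative of myostatin, rose by 1.04 ± 0.09, or 0.66 as the mean of its probe sets.

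Wnt genes gave 5 higher and 2 lower of 50 called, under the shares of all genes in both directions. Wnt genes called higher numbered 2 without AdNkx6.1 replicate 5, and 3 without AdNkx6.1 replicate 1 or 4, or without Adβgal replicate 6. Wnt genes called lower numbered 6 without Adβgal replicate 4, and 7 without Adβgal replicates 4 to 6 together. Lrp5, a Wnt coreceptor, rose by 0.47 ± 0.11, and Wif1, a secreted Wnt inhibitor, fell by 0.37 ± 0.10, both with overlap of the groups. Notch genes, by contrast, were called higher in 11 of 37 (29.7%, against 16.6% of all genes) and lower in 0, with a median change of 0.14. Hes1, the repressor that is the best known Notch target, read 11.16, 11.002, 11.11, 11.06 and 11.05 against 9.21, 9.70 and 10.41, a change of 1.27 ± 0.18 (adjusted p = 8.1e-05). Nrarp, a target that feeds back on Notch, read 8.64 to 9.13 against 5.98 to 8.58, a change of 1.22 ± 0.35. Psen2, a catalytic subunit of γ-secretase, rose by 0.66 ± 0.10. Notch genes called lower numbered 1 without AdNkx6.1 replicate 2 or 3, or without Adβgal replicate 2 or 6, or without Adβgal replicates 4 to 6 together, and 2 without Adβgal replicate 1.

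Genes of tight junctions were higher in 11 of 32 (34.4%) and lower in 0. Their median change was 0.05, against 0.02 over all genes. Changes over the list ran from -2.18, which was not called, to 1.58. Cldn3, a sealing claudin, read 11.29, 11.03, 11.01, 11.16 and 11.03 against 9.03, 9.35 and 10.30, a 2.995-fold rise (change 1.58 ± 0.18, adjusted p = 8.5e-06). Its AdNkx6.1 arrays lay above all Adβgal and untreated (8.95 to 9.39) arrays. The cytoplasmic plaque proteins cingulin (Cgn) and its paralog Cgnl1 rose by 0.75 ± 0.12 and 1.14 ± 0.16. F11r (junctional adhesion molecule A) and Pard6a, of the Par polarity complex, rose by 0.83 ± 0.09 and 0.78 ± 0.12. Tight junction genes called lower numbered 1 without AdNkx6.1 replicate 2, or without Adβgal replicate 2, 4, 5 or 6, or without Adβgal replicates 4 to 6 together, and 2 without Adβgal replicate 1.

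Of the cadherin, desmosome and integrin genes, 8 higher (14.8%) and 4 lower (7.41%) of 54 were called. Adhesion genes called lower numbered 1 without AdNkx6.1 replicate 3, and 2 without AdNkx6.1 replicate 4 or 5. Cdh3, P-cadherin, read 7.44, 7.47, 7.38, 7.63 and 7.44 against 4.83, 5.40 and 7.50, so that 1 Adβgal array reached the AdNkx6.1 range (change 1.71 ± 0.34). Nectin2, which sits beside cadherins at adherens junctions, rose by 1.30 ± 0.12 without overlap, and Jup (plakoglobin) rose by 0.62 ± 0.07. Mucins and O-glycosylation enzymes gave 8 higher (15.7%) and 5 lower (9.80%) of 51. Mucin list genes called lower numbered 3 without AdNkx6.1 replicate 3, 4 or 5. Galnt6 led them (above). Galnt10, a related transferase, rose by 1.497 ± 0.13, or 0.84 as the mean of its probe sets. Galnt5 fell by 0.52 ± 0.13, with overlap of the groups. The membrane mucin Muc13 read 7.70 to 8.45 with AdNkx6.1, 5.02 to 7.44 with Adβgal and 7.36 to 7.72 untreated. For Muc1, whose groups overlapped, the change of 0.89 ± 0.25 was 1.48 without Adβgal replicates 4 to 6. The sialyltransferase St6galnac4 rose by 0.95 ± 0.10 (0.48 as the mean of its probe sets), whereas St3gal6 fell by 0.40 ± 0.08.

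The BPI-fold and Ly6/uPAR families were called higher in 11 of 28 (39.3%) and lower in 0. The median change was 0.15, and without Adβgal replicates 4 to 6 the counts were 11 higher and 0 lower. Family members called lower numbered 1 without AdNkx6.1 replicate 2, or without Adβgal replicate 3 or 5. Besides Bpifb1 and Ly6i, Bpifa5 read 8.52, 8.30, 8.11, 9.14 and 9.32 against 4.79, 5.08 and 5.36, a 12.03-fold rise (change 3.59 ± 0.19, adjusted p = 2.9e-09). Lypd8, a Ly6-domain protein of the colon that keeps bacteria from the epithelium, rose 4.67-fold. Pinlyp, a Ly6-domain inhibitor of phospholipase A2, rose 4.52-fold. In all 3 the ranges of Adβgal and untreated arrays overlapped. Earlier results had singled out some of these genes, so the count is no independent support.

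Secreted proteins of liver type moved both ways. Of the acute phase, complement and coagulation genes, 8 higher (14.8%) and 6 lower (11.1%) of 54 were called, with a median change of -0.02. Saa3, an acute phase apolipoprotein, read 8.91, 9.09, 9.85, 9.49 and 9.91 against 4.88, 5.58 and 6.40, with untreated islets at 5.38 to 7.80. The change of 3.91 ± 0.38 is 14.99-fold (adjusted p = 1.8e-06). Fga, the fibrinogen α chain, rose 12.6-fold, and hemopexin (Hpx), the plasma carrier of heme, 5.39-fold. A2m, a broad protease trap, read 9.49 to 10.20 with AdNkx6.1 against 7.83 to 8.82 with Adβgal and 9.25 to 9.55 untreated. Ambp, the precursor of α1-microglobulin, fell by 1.16 ± 0.19, and Apcs, serum amyloid P, fell by 1.04 ± 0.19 with overlap.

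In the serpin family, protease inhibitors that trap their targets, 1 higher (3.23%) and 3 lower (9.68%) of 31 were called. Serpins called higher numbered 0 without AdNkx6.1 replicate 3, 4 or 5, or without Adβgal replicate 4 or 5, or without Adβgal replicates 4 to 6 together, and 2 without Adβgal replicate 1. Serpins called lower numbered 5 without Adβgal replicate 2 or 5, or without Adβgal replicates 4 to 6 together. Serpini2, known from exocrine pancreas, read 7.29, 7.27, 6.58, 6.69 and 6.68 against 8.13, 8.92 and 10.93, and the change of -2.22 ± 0.39 was -1.53 without Adβgal replicates 4 to 6. Serpina1 fell by 0.51 ± 0.13, with overlap. Of the extracellular proteases and their inhibitors 9 higher (14.8%) and 7 lower (11.5%) of 61 were called. Proteases and inhibitors called higher numbered 15 without Adβgal replicates 4 to 6 together. The membrane proteases prostasin (Prss8) and matriptase (St14), which activate one another in epithelia, rose by 1.65 ± 0.11 and 1.06 ± 0.11. Mmp17, a GPI-anchored metalloprotease, rose by 1.78 ± 0.20. Mmp13 read 7.33 to 9.01 against 4.97 to 6.996, while untreated islets lay at 7.36 to 8.27. Adam23, an adhesion protein without protease activity, fell by 1.02 ± 0.15 (-0.47 as the mean of its probe sets), and Mmp16 fell by 0.77 ± 0.13 (-0.49 with 32 added).

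Genes known from the germ line were called higher in 10 of 33 measured (30.3%) and lower in 4 (12.1%). Over all genes these shares were 16.6% and 8.48%. Germ line genes called lower numbered 2 without Adβgal replicates 4 to 6 together. Besides Catsperz, Tdrd1, a Tudor protein of the piRNA pathway, read 8.40, 7.48, 6.24, 7.80 and 7.51 against 5.03, 5.26 and 6.16, a change of 2.11 ± 0.29. Tssk2, a kinase of spermatids, rose by 0.87 ± 0.14 (0.55 with 32 added). Prm1, the protamine that packs sperm DNA, gave the largest fall of all genes. It read 6.43, 5.997, 6.35, 6.71 and 6.58 with AdNkx6.1, against 11.69, 12.34 and 12.73 with Adβgal and 3.45 to 4.09 untreated. The 3 groups were thus widely apart, with AdNkx6.1 57.4-fold below Adβgal (change -5.84 ± 0.20, adjusted p = 1.7e-11) and between it and untreated islets.

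Epidermal and hair genes were higher in 8 of 36 (22.2%) and lower in 0, beside 16.6% and 8.48% over all genes. Epidermal genes called lower numbered 1 without Adβgal replicate 2. Tchh, trichohyalin of the hair follicle, read 7.68, 7.83, 8.18, 7.98 and 8.19 against 4.005, 4.26 and 4.93, a 12.4-fold rise (change 3.64 ± 0.15, adjusted p = 8.6e-11). The peptidylarginine deiminases, which convert arginine of proteins such as trichohyalin to citrulline, rose too, Padi2 by 1.76 ± 0.14 and Padi4 by 2.02 ± 0.20. Krt1, of the upper epidermis, rose by 1.94 ± 0.24 and Krt23 by 1.47 ± 0.19. With 32 added before the log, the changes of Padi4 and Krt1 were 1.08 and 1.29.

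Some genes that serve DNA synthesis and repair were among the rises. Nucleotide and one-carbon enzymes gave 11 higher and 5 lower of 51 called. These shares are 21.6% and 9.8%, beside 16.6% and 8.48% over all genes, and the median change of the list was -0.03. Nucleotide enzymes called higher numbered 7 without AdNkx6.1 replicate 5, or without Adβgal replicates 4 to 6 together. Tk1, the thymidine kinase of S phase, read 10.37, 10.05, 10.49, 10.39 and 10.44 against 8.15, 8.47 and 8.86, a 3.59-fold rise (change 1.84 ± 0.12, adjusted p = 2.5e-08). Adss1, an adenylosuccinate synthase of the purine nucleotide cycle, read 10.14 to 10.75 against 7.50 to 8.41, a change of 2.45 ± 0.15. Rrm1, the large subunit of ribonucleotide reductase, and Dhodh, the mitochondrial enzyme of pyrimidine synthesis, rose by 0.54 ± 0.07 and 0.68 ± 0.08. The folate enzymes Shmt1 and Mthfd2 fell (changes -0.44 ± 0.09 and -0.30 ± 0.07), with overlap of the groups for Shmt1.

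DNA damage repair genes were called higher in 21 of 73 (28.8%) and lower in 8, with a median change of 0.13. Xrcc3, which acts in homologous recombination, read 7.25, 7.29, 7.04, 7.37 and 7.04 against 4.56, 5.39 and 5.51, a change of 2.01 ± 0.16 (adjusted p = 1.8e-07). Brca1, of the same pathway, rose by 1.11 ± 0.15 from dim arrays (0.65 with 32 added). The checkpoint kinase Chek2 rose by 1.42 ± 0.18. Timeless, which protects replication forks, read 7.88 to 8.27 against 5.92 to 7.50. Lig4, the ligase of end joining, fell by 0.44 ± 0.10.

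Chromatin and DNA methylation enzymes gave 17 higher (21.5%) and 5 lower (6.33%) of 79 called. Chromatin genes called lower numbered 3 without AdNkx6.1 replicate 4 or 5. The rises included proteins that act at the replication fork. Uhrf1, which brings the maintenance methyltransferase to new DNA, rose by 1.25 ± 0.19 with overlap of the groups. Hells, a helicase needed for DNA methylation, read 7.93, 8.22, 8.71, 7.98 and 8.26 against 6.52, 6.74 and 7.57, a change of 1.36 ± 0.19. The histone chaperones Asf1b and Chaf1b, which hand new histones to replicated DNA, rose by 1.26 ± 0.13 and 0.89 ± 0.11. Hdac4, a histone deacetylase, and Prmt3, an arginine methyltransferase, fell (changes -0.37 ± 0.10 and -0.33 ± 0.07). The groups overlapped for Hdac4.

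E2F factors activate genes of DNA synthesis through sites such as TTTCGCGC, TTTGGCGC, TTTCCCGC and TTTGCCGC. These letters, on either strand, stood in 22 of the 305 windows of genes at least 2-fold higher (7.21%), in 1 of 88 windows of genes at least 2-fold lower (1.14%) and in 427 of all 11733 windows (3.64%). They are shown for Hells and Slc5a5, and for the replicative helicase subunits Mcm5 and Mcm6, which were chosen after their values were seen. Capitals mark the matched letters, from RefSeq (GRCr8) on the strand of the gene.
Hells: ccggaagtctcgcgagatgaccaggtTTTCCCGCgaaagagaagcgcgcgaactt
Mcm5: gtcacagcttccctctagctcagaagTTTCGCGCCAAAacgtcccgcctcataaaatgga
Mcm6: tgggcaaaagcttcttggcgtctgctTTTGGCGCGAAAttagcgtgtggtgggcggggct
Slc5a5: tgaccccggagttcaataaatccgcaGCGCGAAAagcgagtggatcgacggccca
The stretches lie at chr1:246114074-246114128, plus strand (Hells), chr19:13488574-13488633, plus strand (Mcm5), chr13:42404458-42404517, minus strand (Mcm6) and chr16:18580650-18580704, plus strand (Slc5a5). In Mcm5 and Mcm6 the capitals span overlapping matches, TTTCGCGC on one strand and TTTGGCGC on the other. Mcm5 read 10.74, 10.62, 10.74, 10.69 and 10.63 against 8.76, 9.27 and 9.40 (change 1.54 ± 0.12) and Mcm6 rose by 1.14 ± 0.12. For other letters searched on both strands, the NR4A monomer site AAAGGTCA stood in 6 of the 305 windows (1.97%) against 1.05% of all windows, and the homeodomain core TAATTA in 4 (1.31%) against 2.46%. Over all genes called higher these shares were 0.818% and 1.79%, and over all genes called lower 1.40% and 3.89%. The E2F letters stood in 5.06% of the windows of genes called higher and 3.39% of those called lower. A match in a window is a description of its letters, and no binding was measured.

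Nucleolar genes gave 14 higher and 6 lower of 85 called, close to the shares of all genes. Nucleolar genes called lower numbered 2 without Adβgal replicates 4 to 6 together, and 3 without AdNkx6.1 replicate 5. Bop1, which processes pre-ribosomal RNA, rose by 0.56 ± 0.10, and the helicase Ddx54 by 0.52 ± 0.09. Myc, the main activator of such genes, read 9.60 to 10.44 with AdNkx6.1, 10.38 to 11.23 with Adβgal and 9.75 to 10.54 untreated, a change of -0.75 ± 0.17 with overlap. Among aminoacyl-tRNA synthetases 3 higher (8.57%) and 6 lower (17.1%) of 35 were called. Synthetases called higher numbered 1 without AdNkx6.1 replicate 4, or without Adβgal replicates 4 to 6 together. All 6 lower members carry the suffix of the mitochondrial enzymes, among them Ears2 (-0.64 ± 0.12), Rars2 (-0.39 ± 0.09) and Nars2 (-1.28 ± 0.26, or -0.73 without Adβgal replicates 4 to 6). The AdNkx6.1 arrays of Nars2 (5.99 to 6.46) overlapped its untreated range of 5.80 to 6.45. The mitochondrial valyl enzyme Vars2 was higher by 0.45 ± 0.11, with overlap.

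Of 42 proteasome subunits measured, 18 were called higher (42.9%) and 0 lower, with a median change of 0.20. Subunits called lower numbered 1 without Adβgal replicate 5, or without Adβgal replicates 4 to 6 together. Changes over the list ran from -0.19 to 0.64. Psmd8, a lid subunit, read 12.38, 12.44, 12.49, 12.67 and 12.54 against 11.66, 11.87 and 11.98, a change of 0.64 ± 0.07 (adjusted p = 7.8e-06). Its neighbours in the regulatory particle rose as well, Psmd3 by 0.55 ± 0.11, Psmd13 by 0.36 ± 0.07 and the ATPase Psmc1 by 0.43 ± 0.09. Cytosolic heat shock and chaperonin genes gave 11 higher (19.6%) and 0 lower of 56 called, beside 16.6% and 8.48% over all genes. Heat shock genes called lower numbered 1 without AdNkx6.1 replicate 3, or without Adβgal replicate 1, 2 or 4, and 2 without Adβgal replicate 3 or 5, or without Adβgal replicates 4 to 6 together. Hspa12a, a distant HSP70 relative, read 8.49 to 8.91 against 6.16 to 7.60 (change 1.91 ± 0.21). The small heat shock protein Hspb6 and the cochaperone Bag3 rose by 0.95 ± 0.09 and 0.65 ± 0.16, the latter with overlap.

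Antioxidant and glutathione genes were near the shares of all genes, with 14 higher and 5 lower of 66 called. Gclc, the rate-limiting enzyme of glutathione synthesis, rose by 0.63 ± 0.08, reading 11.24 to 11.46 against 10.55 to 11.003. The glutathione transferases split, and the virus groups of both named genes overlapped. Gstt3 read 7.46 to 7.94 against 5.11 to 7.51 (change 1.32 ± 0.29). Gsta1 fell by 0.69 ± 0.14, though its AdNkx6.1 arrays stayed above the untreated range of 10.24 to 10.79. Hypoxia response genes gave 14 higher and 2 lower of 46 (30.4% higher), a median change of 0.10. The glycolytic regulator Pfkfb4 rose by 1.01 ± 0.08, the lipase inhibitor Angptl4 by 0.93 ± 0.17, and the collagen lysyl hydroxylase Plod1 by 0.67 ± 0.07. The membrane carbonic anhydrase Car9 read 7.82 to 8.63 against 6.91 to 8.12 (change 0.87 ± 0.19).

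Clock genes gave 6 higher (26.1%) and 2 lower (8.70%) of 23 called. Npas2, an activator partner of Bmal1, read 11.42 to 11.76 with AdNkx6.1 against 10.33 to 11.15 with Adβgal, near the untreated 11.36 to 11.56. The lower genes were the repressors Cry2 (change -0.43 ± 0.08) and Per3 (change -1.29 ± 0.27, or -0.75 as the mean of its probe sets). The kinase Csnk1e rose by 0.66 ± 0.13. For Per3 and Csnk1e the groups overlapped. The AdNkx6.1 arrays of Per3 (7.42 to 8.27) also overlapped its untreated range of 6.87 to 7.64. Lysosome and autophagy genes gave 11 higher (14.1%) and 3 lower (3.85%) of 78. Lysosome and autophagy genes called lower numbered 5 without Adβgal replicate 1, 6 without Adβgal replicates 4 to 6 together, and 7 without Adβgal replicate 4. The members of early autophagosome formation Atg2a, Ulk1 and Wipi2 rose by 0.68 ± 0.06, 0.55 ± 0.08 and 0.54 ± 0.08, and in all 3 genes the groups were separate.

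Apoptosis genes were called higher in 20 of 49 (40.8%) and lower in 4, with a median change of 0.27. Apoptosis genes called lower numbered 7 without Adβgal replicates 4 to 6 together. Apaf1, the scaffold of the apoptosome, read 10.42, 10.44, 10.97, 10.75 and 10.75 against 9.57, 9.75 and 10.004, a change of 0.90 ± 0.11 (adjusted p = 1.5e-05). Bad, which neutralises Bcl-2 proteins, rose by 0.72 ± 0.09. Ripk3, the kinase of necroptosis, read 10.79 to 11.06 against 8.93 to 9.99, a change of 1.29 ± 0.16, and the TWEAK receptor Tnfrsf12a rose by 0.85 ± 0.11. The inflammatory caspases Casp4 and Casp12 and the death ligand Tnfsf10 (TRAIL) fell (changes -0.60 ± 0.11, -0.58 ± 0.16 and -0.56 ± 0.11). The groups overlapped for Casp12, and its AdNkx6.1 arrays (6.21 to 6.68) also overlapped its untreated range of 5.91 to 6.64. RNA levels do not show whether cells died, which was not measured.

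Fatty acid oxidation genes were higher in 19 of 63 (30.2%) and lower in 1, with a median change of 0.14. Oxidation genes called lower numbered 0 without AdNkx6.1 replicate 2, 2 without Adβgal replicate 1 or 2, and 3 without Adβgal replicate 5, or without Adβgal replicates 4 to 6 together. Cpt1a, the gate of fatty acid entry into mitochondria, read 12.40, 12.34, 12.50, 12.41 and 12.45 against 11.33, 11.40 and 11.70. The groups were far apart, with a change of 0.96 ± 0.07 (adjusted p = 8.4e-08), and untreated islets (11.35 to 11.46) matched the Adβgal arrays. Cpt1c, of the endoplasmic reticulum, and Crat, the acetyl carnitine transferase, rose by 0.99 ± 0.12 and 0.95 ± 0.09. Acadvl, the first dehydrogenase for long chains, read 11.67 to 11.97 against 10.55 to 10.94 (change 1.01 ± 0.08). Acot1, a cytosolic thioesterase with close relatives, rose by 2.41 ± 0.14 (1.37 with 32 added).

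Citric acid cycle enzymes and mitochondrial carriers gave 14 higher and 5 lower of 61 called (23.0% higher). Cycle and carrier genes called lower numbered 2 without AdNkx6.1 replicate 4 or 5, or without Adβgal replicate 2, and 3 without AdNkx6.1 replicate 1, or without Adβgal replicate 3 or 6. Gls2, the liver-type glutaminase, read 10.19, 10.13, 10.15, 10.18 and 10.36 against 7.46, 9.18 and 9.63, a change of 1.24 ± 0.27. The citrate carrier Slc25a1 and the dicarboxylate carrier Slc25a10 rose by 0.87 ± 0.14 and 0.75 ± 0.09, and Slc25a33, a pyrimidine nucleotide carrier, by 0.79 ± 0.11. The mitochondrial malic enzyme Me3 fell by 0.60 ± 0.13, with overlap.

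**Figure D3:**
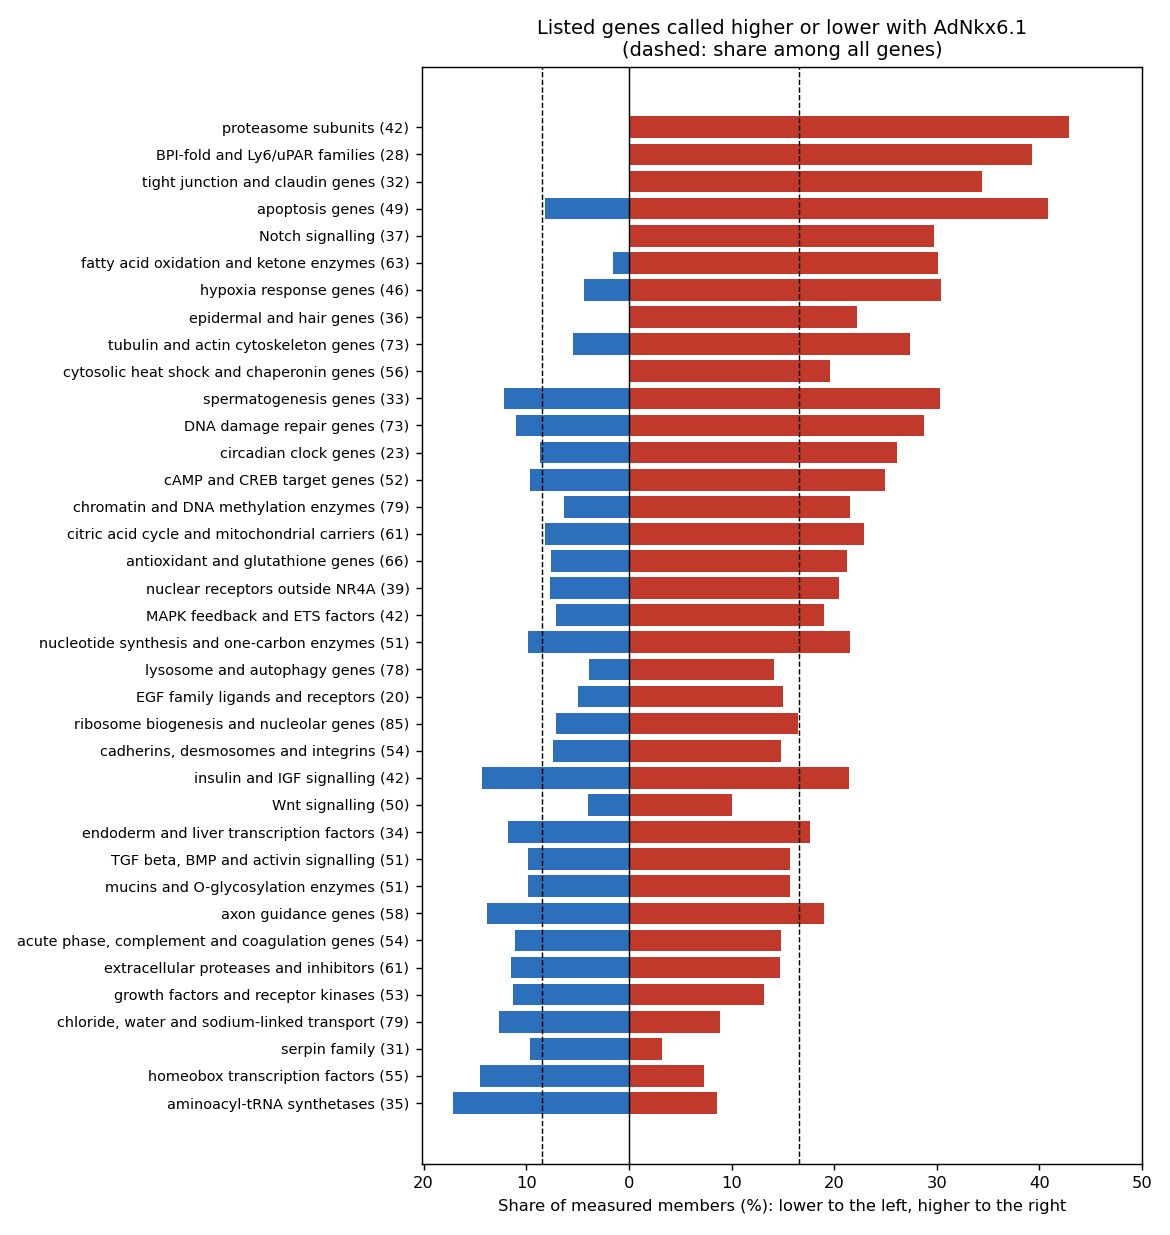
Share of the measured members of 37 gene lists called higher (red, to the right) or lower (blue, to the left) with AdNkx6.1; the number measured stands in brackets, and dashed lines mark 16.6% higher and 8.48% lower over all 14217 genes. Proteasome (42.9% higher), apoptosis (40.8%) and BPI-fold and Ly6/uPAR genes (39.3%) have the longest red bars.

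Ion transport outside Slc5a5 was mixed. Chloride, water and sodium-linked transport genes gave 7 higher (8.86%) and 10 lower (12.7%) of 79 called, beside 16.6% and 8.48% over all genes. The members named here are mostly rises, although more of the list was called lower than higher. Transport genes called lower numbered 6 without AdNkx6.1 replicate 4. The chloride channel Clcn2 rose by 1.28 ± 0.12, the epithelial sodium channel subunit Scnn1a by 1.32 ± 0.14, and the potassium-chloride cotransporter Slc12a5 by 1.04 ± 0.15. Slc4a11 rose by 1.82 ± 0.22. Clca2, a regulator of chloride currents, read 6.32 to 6.89 against 7.67 to 8.59 (change -1.61 ± 0.16). Slc17a4, an intestinal anion transporter named for its large fall and not as a list member, fell by 1.77 ± 0.22.

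Cytoskeletal genes were higher in 20 of 73 (27.4%) and lower in 4. Cytoskeletal genes called lower numbered 7 without Adβgal replicate 1. Myh14, a nonmuscle myosin of apical junctions, read 10.79, 10.36, 10.55, 10.93 and 10.90 against 6.96, 8.23 and 8.89, a 6.17-fold rise (change 2.63 ± 0.25). The neurofilament heavy chain Nefh and the neuronal tubulin Tubb4a rose by 1.22 ± 0.12 and 1.14 ± 0.11. Tubg1, the γ-tubulin that nucleates microtubules, read 10.81 to 11.15 against 9.96 to 10.28 (change 0.89 ± 0.08, adjusted p = 4.7e-07). Doublecortin (Dcx), a microtubule protein of migrating neurons, fell by 0.38 ± 0.08. Axon guidance genes gave 11 higher and 8 lower of 58, 19.0% and 13.8% of the list. Sema6b, Sema4g and the ephrin Efna4 rose by 0.97 ± 0.16, 0.92 ± 0.12 and 1.37 ± 0.15. The secreted semaphorins Sema3c and Sema3e fell (changes -0.52 ± 0.12 and -0.71 ± 0.19), with overlap of the groups for Sema3e.

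The largest falls after Prm1 were smaller than the largest rises. Aldh1a1, a retinaldehyde dehydrogenase, read 7.51, 7.36, 6.85, 6.48 and 6.78 against 8.51, 8.89 and 9.42, a 3.84-fold fall (change -1.94 ± 0.19, adjusted p = 2e-06). All its AdNkx6.1 arrays were also below the untreated range of 8.22 to 8.68. Calb1, the cytosolic calcium buffer calbindin, read 7.55, 7.89, 7.79, 7.53 and 7.52 against 8.68, 9.30 and 10.60 and 9.49 to 9.88 untreated, a change of -1.81 ± 0.24. Rbp4, the plasma retinol carrier, read 10.81, 10.82, 10.63, 10.29 and 10.54 against 11.28, 11.74 and 12.08, a change of -1.14 ± 0.13. Apoh, a phospholipid-binding plasma protein, fell 3.36-fold, reading 8.18 to 8.60 against 9.71 to 10.57 (adjusted p = 4.9e-07).

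Ion channels and adhesion proteins known from neurons were among the named falls. Scn9a, a voltage-gated sodium channel, read 7.91, 7.85, 7.70, 7.03 and 6.91 against 8.58, 9.10 and 9.54, a change of -1.64 ± 0.20. Scn7a, its sodium-sensing relative, fell by 1.32 ± 0.13, and Nalcn, the sodium leak channel, changed by -1.32 ± 0.11 (adjusted p = 4.4e-07). Nalcn arrays ran over 7.11 to 7.62 with AdNkx6.1 and 8.38 to 8.97 with Adβgal, so its groups were clearly apart. The AMPA receptor subunits Gria2 and Gria3 fell (changes -0.88 ± 0.14 and -0.80 ± 0.12). Ncam2, a neural adhesion molecule, read 7.35, 7.66, 7.80, 7.27 and 7.55 against 7.91, 9.09 and 10.16, a change of -1.52 ± 0.26. Lrrn3, a leucine-rich neuronal membrane protein, read 7.76, 7.79, 7.87, 7.20 and 7.17 against 9.07, 9.24 and 9.59, a 3.25-fold fall (change -1.70 ± 0.13, adjusted p = 2e-07). Gnat3, the taste G protein gustducin, fell by 1.64 ± 0.21.

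Other named falls were of signalling and secreted proteins. Ptprd, a receptor phosphatase, fell by 1.53 ± 0.15, a change of -0.97 as the mean of its 3 probe sets. Fgfr2 read 8.01, 8.35, 8.64, 8.07 and 8.09 against 9.45, 9.90 and 10.50 at its brightest probe set (change -1.67 ± 0.16), but the mean of its 5 probe sets changed by -0.39. Ppp2r2b, a regulatory subunit of protein phosphatase 2A, fell by 1.28 ± 0.13. RragB, a Rag GTPase that senses amino acids for mTORC1, fell by 0.82 ± 0.08. Myt1, a zinc finger factor of neuroendocrine cells, changed little but evenly: it read 12.70, 12.64, 12.64, 12.57 and 12.59 against 13.07, 13.17 and 13.21, a change of -0.53 ± 0.05 (adjusted p = 1.4e-06). Pamr1, a secreted protein with a protease-like domain, fell by 1.57 ± 0.26.

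**Figure D4:**
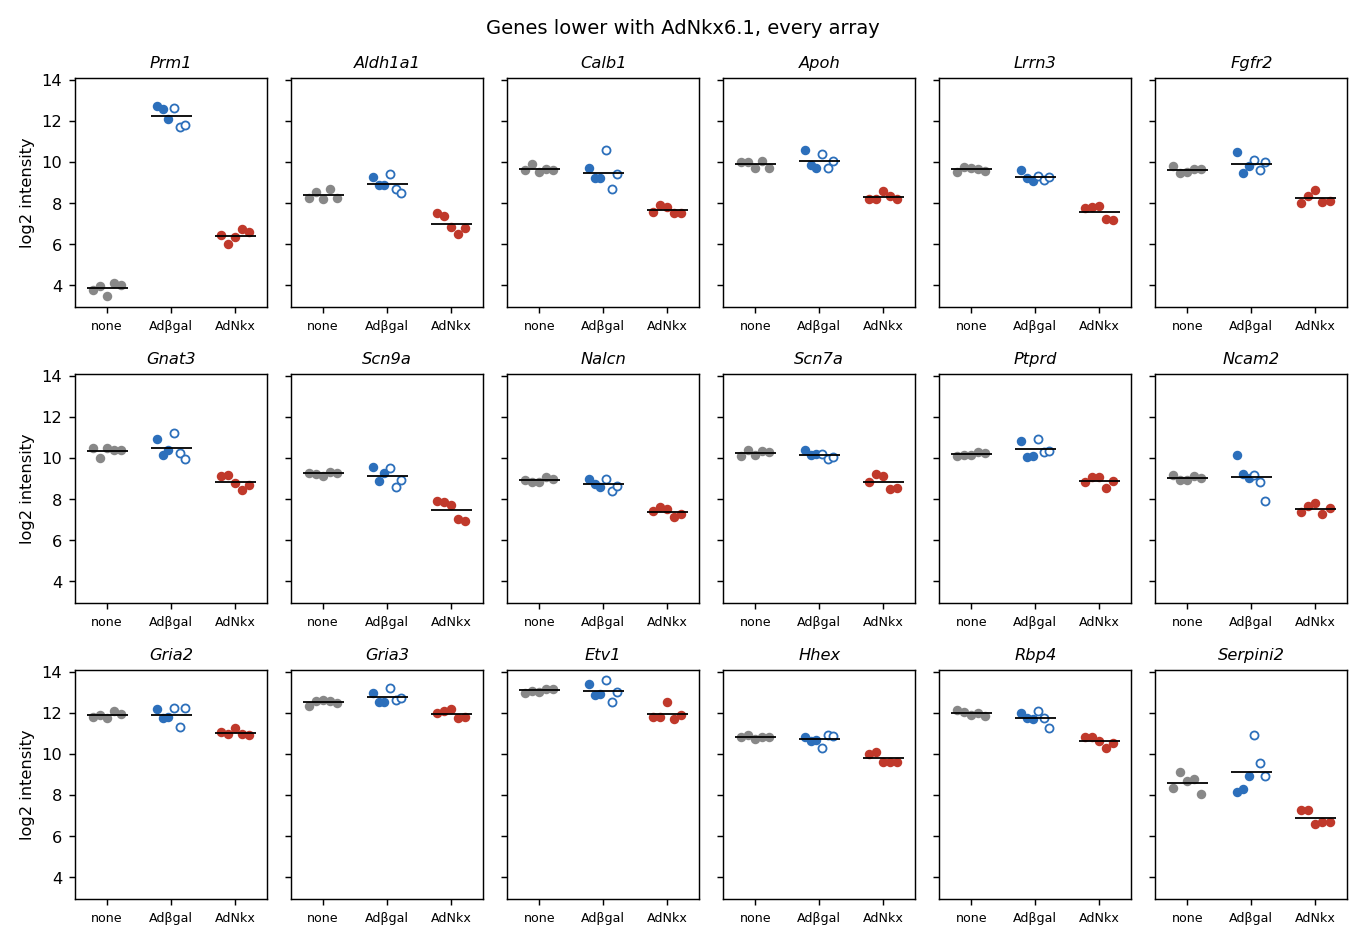
Log2 intensity of 18 genes called lower, with every array as a point and the group mean as a bar; none is untreated, AdNkx is AdNkx6.1, and open circles are Adβgal replicates 4 to 6. In all 18 panels the AdNkx6.1 points lie below the Adβgal points, and Prm1 has untreated points (3.45 to 4.09) below both virus groups.

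Of 5 microRNA genes tested, 3 were called, all lower. The arrays detect the RNA of the gene through the annotated probe set, and the mature microRNAs were not measured. Mature sequences are from RefSeq (GRCr8), given to show what these genes can produce, with the seed (bases 2 to 8) in capitals. No seed is shared between them.
rno-miR-384-5p: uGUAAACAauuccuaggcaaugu
rno-miR-384-3p: aUUCCUAGaaauuguucacaau
rno-miR-29c-5p: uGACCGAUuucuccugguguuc
rno-miR-29c-3p: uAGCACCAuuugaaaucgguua
rno-miR-23b-5p: gGGUUCCUggcaugcugauuu
rno-miR-23b-3p: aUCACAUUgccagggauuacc
On GRCr8 the mature miR-384-5p lies at chrX:74490939-74490961, minus strand, miR-29c-3p at chr13:109099412-109099433, plus strand and miR-23b-3p at chr17:1819405-1819425, minus strand. Mir384 read 5.64, 5.57, 5.28, 4.89 and 4.42 with AdNkx6.1 against 6.09, 6.86 and 8.64 with Adβgal, a change of -1.85 ± 0.36, or -1.19 without Adβgal replicates 4 to 6. Mir29c read 9.10, 9.02, 9.60, 9.16 and 8.84 against 9.64, 10.68 and 11.67, a change of -1.48 ± 0.30 that became -1.096 without those arrays. Its AdNkx6.1 arrays overlapped the untreated range of 8.95 to 9.91. Mir23b fell by 1.46 ± 0.32 (-1.08 without those arrays). The long noncoding Lnc215 fell by 2.07 ± 0.48, with a change of -1.12 without them. The AdNkx6.1 arrays of Mir23b (6.98 to 7.88) overlapped its untreated range of 7.295 to 8.15. Those of Lnc215 (6.69 to 7.39) overlapped its untreated range of 6.73 to 8.04.

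The levels of cell type markers are given because in whole islets fewer cells of a type and less RNA per cell cannot be told apart. Beta cell markers gave 0 higher and 3 lower (25%) of 12 called. The lower genes were Nkx6-1, the transcription factor Pdx1 and Kcnj11, the pore of the ATP-sensitive potassium channel. Pdx1 (change -0.31 ± 0.10) lost its call when AdNkx6.1 replicate 2, 3 or 5 was left out and when Adβgal replicate 2 or 3 was. Kcnj11 (change -0.25 ± 0.08, groups overlapping) lost its call in each fit that left out one of Adβgal replicates 1 to 3 or of AdNkx6.1 replicates 3 to 5, and the mean of its 3 probe sets changed by -0.07. Beta cell markers called lower numbered 1 without AdNkx6.1 replicate 5, or without Adβgal replicate 2 or 3, and 6 without Adβgal replicates 4 to 6 together. Hormone genes were among the brightest probe sets: Ins1 changed by -0.02 ± 0.08, Ins2 by 0.01 ± 0.06 and Iapp by -0.03 ± 0.06, none called. Whether probe sets this bright respond less to a change in RNA was not tested. The list mean read 12.66 to 12.79 over the AdNkx6.1 arrays, 12.84 to 13.02 with Adβgal and 13.11 to 13.23 untreated.

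Markers of alpha, delta and PP cells gave 0 higher and 5 lower of 9 called (against 8.48% lower over all genes). The mean of the list ran over 11.73 to 12.06 with AdNkx6.1 against 12.11 to 12.59 with Adβgal and 12.34 to 12.50 untreated. Etv1 and Hhex fell as above, and Pyy, peptide YY, read 13.40, 13.42, 13.79, 13.30 and 13.34 against 13.86, 13.96 and 14.18, a change of -0.53 ± 0.09 (adjusted p = 0.00025). Gcg (glucagon) changed by -0.03 ± 0.07 and Sst (somatostatin) by -0.15 ± 0.06, neither called in the main test, while Sst was called with 32 added before the log (adjusted p = 0.0481) and with trended, robust moderation (adjusted p = 0.0248). Ppy changed by -0.21 ± 0.07, a call that was lost without AdNkx6.1 replicate 1, 2, 4 or 5 and without Adβgal replicate 1, 4, 5 or 6.

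Acinar markers, of exocrine tissue left on isolated islets, had the widest range of the 8 lists within the Adβgal group. Their mean ran over 9.15 to 10.76 with AdNkx6.1, 9.27 to 12.04 with Adβgal and 9.65 to 10.53 untreated, and Adβgal replicates 4 to 6 were the highest 3 of all 16 arrays. Of the list 0 higher and 3 lower of 21 were called, with a median change of -0.89 that was -0.07 without those 3 arrays. Acinar markers called lower numbered 1 without Adβgal replicates 4 to 6 together, 5 without AdNkx6.1 replicate 3, and 16 without Adβgal replicate 2. Cpa1, a pancreatic carboxypeptidase, changed by -1.83 ± 0.51 with overlap of the groups. Its call was lost without those 3 arrays (change -0.93, adjusted p = 0.192). Ptf1a, the acinar transcription factor, read 6.30, 5.90, 5.32, 5.17 and 5.18 against 6.75, 7.52 and 9.11, a change of -2.11 ± 0.41, or -1.48 without those 3 arrays. The part of acinar tissue in other falls with high Adβgal replicates 4 to 6, such as Serpini2 and Mir384, was not tested.

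Duct markers gave 4 higher (30.8%) and 1 lower (7.69%) of 13 called. Duct markers called lower numbered 2 without AdNkx6.1 replicate 2 or 3, or without Adβgal replicate 1, 2 or 5, or without Adβgal replicates 4 to 6 together. The keratins of simple epithelia rose by small, even steps: Krt8 read 13.85, 13.83, 13.81, 13.93 and 13.91 against 13.23, 13.29 and 13.39 (change 0.57 ± 0.06, adjusted p = 1.8e-06), Krt18 rose by 0.53 ± 0.07 and Krt7 by 0.34 ± 0.06. The mean of the duct list ran over 10.32 to 10.60 with AdNkx6.1 and 10.06 to 10.62 with Adβgal, so it overlapped. The part of duct cells in the rises of epithelial genes was not tested.

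Endothelial markers gave 0 higher and 0 lower of 13 called, with means of 8.97 to 10.10 with AdNkx6.1 and 8.45 to 11.16 with Adβgal. Endothelial markers called lower numbered 1 without Adβgal replicate 2, and 3 without Adβgal replicate 1. Stellate cell and fibroblast markers gave 0 higher and 2 lower of 17, with means of 11.14 to 11.33 and 10.87 to 11.51. Stellate cell and fibroblast markers called higher numbered 1 without Adβgal replicate 2 or 3. Stellate cell and fibroblast markers called lower numbered 0 without AdNkx6.1 replicate 1, or without Adβgal replicates 4 to 6 together, 1 without AdNkx6.1 replicate 3, 4 or 5, or without Adβgal replicate 4, 5 or 6, and 4 without Adβgal replicate 1. Leukocyte markers gave 1 higher and 1 lower of 21, with means of 7.64 to 8.17 and 7.76 to 8.89, and Adβgal replicates 4 to 6 were the highest of all arrays. Leukocyte markers called lower numbered 0 without Adβgal replicates 4 to 6 together, 2 without Adβgal replicate 1 or 2, and 3 without AdNkx6.1 replicate 3, or without Adβgal replicate 3. Lck, a kinase of T cells, read 8.50, 7.78, 7.69, 7.85 and 7.86 against 6.33, 6.86 and 7.42, a change of 1.09 ± 0.18. Schwann cell and neuron markers gave 3 higher (27.3%) and 2 lower (18.2%) of 11. Schwann cell and neuron markers called higher numbered 0 without AdNkx6.1 replicate 5, and 1 without AdNkx6.1 replicate 2, or without Adβgal replicate 1, 4 or 6. Schwann cell and neuron markers called lower numbered 1 without AdNkx6.1 replicate 1, 2 or 3, or without Adβgal replicate 1, 2 or 3.

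**Figure D5:**
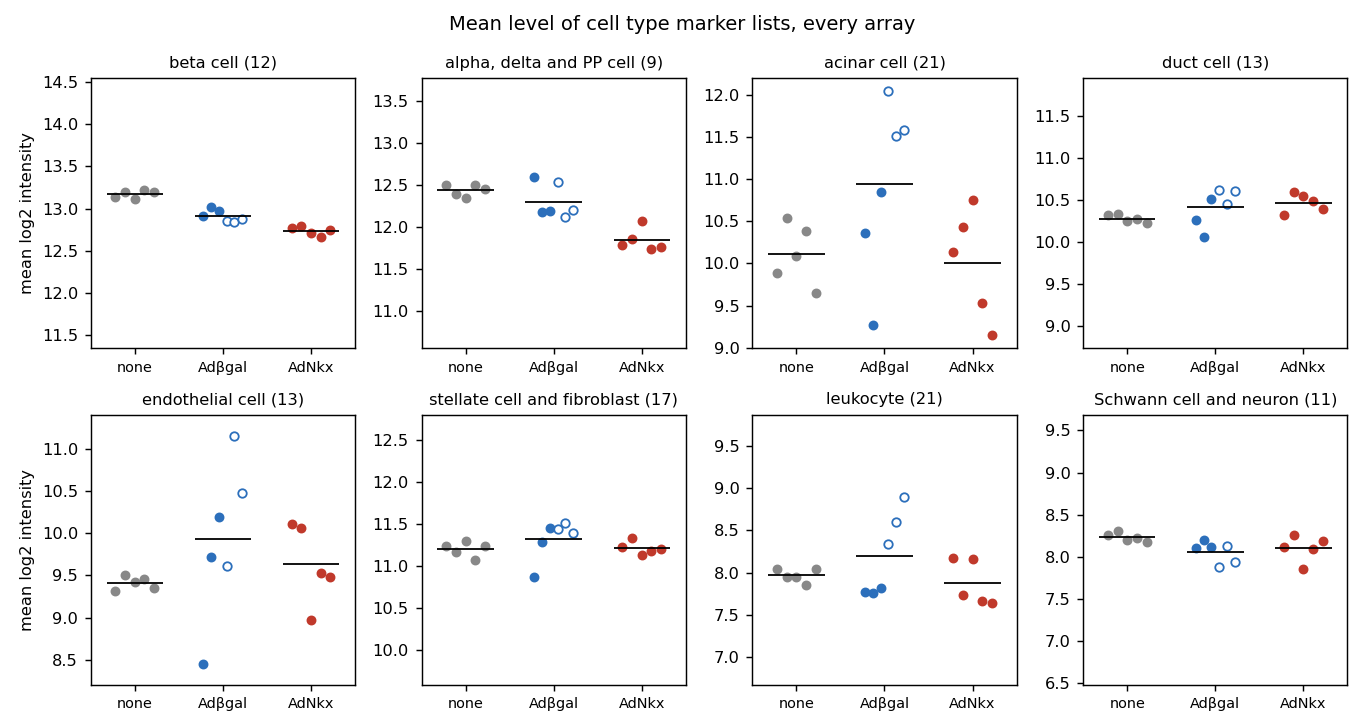
Mean log2 intensity of 8 lists of cell type markers on every array, with the number of measured markers in brackets, the group mean as a bar, and all y axes spanning the same distance; none is untreated, AdNkx is AdNkx6.1, and open circles are Adβgal replicates 4 to 6. Acinar means spread from 9.27 to 12.04 with Adβgal, and the alpha, delta and PP list is lower on every AdNkx6.1 array than on every Adβgal array.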

How the data were processed

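RNA of islets was labelled and hybridised to 1-colour Affymetrix rat arrays, per the labels. The values in the deposited table are linear intensities, 1 per probe set and array. The submitters' processing notes name RMA, without a version, and the return to a linear scale is not described in the sources used here. Log2 of each intensity was taken, with no pseudocount. Probe sets with 1 gene symbol in the platform annotation (20826 of 31099) were used, and 57 controls were left out. The probe set with the highest mean over the 16 arrays stands for each of 14217 genes. Detection calls were not used.

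Genes were tested with limma 3.58.1 (lmFit, contrasts.fit and eBayes) in R 4.3.3, in 1 fit over the 16 arrays and 3 groups, with Benjamini-Hochberg adjustment over all genes, 2-sided. The script was tested on simulated data. Tables and figures were made with Python 3.11.15, pandas 2.3.3 and matplotlib 3.10.9. The number of arrays limits the precision.

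The comparison, its 45 gene lists and the naming rule were chosen with earlier results of these data known. The rule names the genes of the title, the 30 largest called changes each way, the 15 largest each way among genes at 10 or more, the 10 smallest p each way, and up to 5 called members each way per list; many genes whose call or value another setting changed were left out. The alternatives left out arrays and changed the block, arrays in the fit, probe set, normalization, filter at 7, pseudocount of 32, moderation and array weights.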

Additional observations from a re-analysis of the deposited data

Results flagged for a closer look

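Of 454 groups of 5 or 6 arrays tested over the named genes, 26 (5.73%) held an array far from the others by Dixon's ratio of its gap to the group's range. Chance flags about 1 in 20 groups, and the pooled share is near that. Many genes that another setting changed, such as leaving out an array, had been dropped from the named genes. The pooled share therefore cannot tell how often an array stood apart over all genes. The flags were not spread evenly over the arrays. In the Adβgal group each flagged array was replicate 4, 5 or 6, except replicate 1 in Gsta1. Adβgal replicate 1 was the lowest of its group in Gsta1 (11.28, next 11.97). Adβgal replicate 4 was the highest of its group in Rbp7 (5.52, next 4.42), Tdrd1 (6.16, next 5.42), Krt23 (6.61, next 5.72), Slc4a11 (7.41, next 6.49) and Car9 (8.12, next 7.32). Adβgal replicate 4 was the lowest of its group in Sema3e (10.30, next 11.15), A2m (7.83, next 8.47) and Gls2 (7.46, next 8.96). Adβgal replicate 5 was the highest of its group in Ly6i (5.68, next 4.10). Adβgal replicate 5 was the lowest of its group in Blvrb (9.48, next 10.04), Muc13 (5.02, next 6.64) and Slc25a1 (9.69, next 10.33). Adβgal replicate 6 was the lowest of its group in Nr1h4 (9.90, next 10.32), Apcs (7.84, next 8.54) and Mmp13 (4.97, next 6.45). AdNkx6.1 replicate 1 was the highest of its group in Lck (8.50, next 7.86). AdNkx6.1 replicate 2 was the highest of its group in Serpina1 (10.83, next 10.62). AdNkx6.1 replicate 2 was the lowest of its group in Rhof (9.01, next 9.36), Slc35f2 (9.62, next 10.20) and Tk1 (10.05, next 10.37). AdNkx6.1 replicate 3 was the highest of its group in Etv1 (12.5, next 11.92) and Pyy (13.79, next 13.42). AdNkx6.1 replicate 3 was the lowest of its group in Sulf2 (11.44, next 11.72). AdNkx6.1 replicate 5 was the highest of its group in Prss8 (8.46, next 8.29) and Gls2 (10.36, next 10.19). Values are log2 intensities, with that of the nearest array beside each. Except for Apcs, Serpina1, Sema3e, Gsta1 and Car9, the virus groups of these genes did not overlap.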

How the results depend on the processing

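The number of genes called ran from 2783 to 3933 when a single array was left out, that of genes higher from 1938 to 2637, that of genes lower from 845 to 1357, and that at 1.5-fold or more from 1283 to 1539. The main fit takes its spread from the untreated arrays too. With only the 11 arrays of the virus groups in the fit, 2580 genes were called, 1818 higher and 762 lower. That fit kept 2575 of the 3560 main calls. With array weights 1882 genes were lower and 4940 were called in all. These are the alternatives that moved one of the 4 counts by more than 1.5 times, and the cause was not tested. Another quantile normalization gave 3870 calls, 2070 higher and 1800 lower. With the replicate number as a block 2855 genes were called, 1950 higher and 905 lower. Same-numbered AdNkx6.1 and Adβgal arrays did not deviate together, with correlations of -0.39, -0.05, -0.03, -0.09 and -0.16 for numbers 1 to 5. Whether they came from a common islet preparation is not given in the labels used here, so a pairing stays unknown. Of the 90 list counts, 25 moved by more than 1.5 times without Adβgal replicates 4 to 6 and 25 with array weights. The replicate block moved 16, the fit on the 11 arrays 19, quantile normalization 19 and the dim filter 9, and the 3 other settings that keep every array moved 3 or 4 each. The paragraphs on lists give only the moves of fits that leave out arrays. Which lists the other settings moved is not given there. Of 227 genes named, the alternatives changed the call of Cpa1, Ppy, Pdx1, Kcnj11, Sst and Nr4a2, and no named gene that was called changed sign. Many genes that another setting changed were left out of the text, so the named genes do not measure stability over all genes. Of all 3560 calls, 2542 were kept in every fit that leaves out a single array. The uncalled hormone genes Ins1, Ins2 and Gcg, with changes near 0, took either sign. Signal over background was not used, so dim probe sets, such as those of Slc5a5 in the controls, have folds that depend on values near the floor of the arrays.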
